A study of Rattus norvegicus with 20 samples.

Results

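Transcripts of the BCL2 family, the proteins that decide whether a cell opens its mitochondria and dies, were measured in the blood of rats given acetaminophen (APAP). Of 10 members sought (Bcl2, Bcl2l1, Mcl1, Bcl2a1, Bax, Bak1, Bid, Bad, Bcl2l11 and Bbc3), 9 were represented by 15 probe sets that the array's annotation assigns to exactly 1 gene symbol. Bax was not analysed here, because its probe set carries more than 1 symbol. The 15 were part of 31042 probe sets on each Affymetrix Rat Genome 230 2.0 array, a probe set being a group of short oligonucleotides that together give 1 signal. Blood came from male Wistar rats in 4 groups with 5 arrays each and 1 rat per array: susceptible postdose (SA), susceptible predose (S), resistant postdose (RA) and resistant predose (R). All 4 groups come from rats given APAP by mouth at 1.2 g/kg after a fast of 12 h, with predose blood drawn 1 week before dosing and postdose blood 24 h after it. Susceptible and resistant rats were the 5 with the highest and the 5 with the lowest serum alanine aminotransferase, an enzyme that leaks from injured liver, among 35 dosed rats, so that the sub-groups were defined after dosing. The sources give no age in numbers, differ on the bleeding site after dosing (retro-orbital plexus in the labels, inferior vena cava in the methods), and vehicle-treated rats were not on these arrays. The 10 rats are the same before and after dosing, but the labels do not tie a postdose array to its predose one, so the arrays were treated as separate samples. With no vehicle-treated rats on the arrays, APAP, fasting, the earlier bleed and the day of bleeding cannot be told apart in a postdose change. The same holds for the bleeding site if it changed as the methods state. Red cells were lysed before RNA extraction.

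In this family, BCL2, BCL-XL (encoded by Bcl2l1), MCL1 and A1 (encoded by Bcl2a1) keep cells alive by holding their pro-apoptotic relatives in check. BAX and BAK perforate the outer mitochondrial membrane, which releases cytochrome c and starts the caspases. The BH3-only proteins BID, BAD, BIM (encoded by Bcl2l11) and PUMA (encoded by Bbc3) sense stress and tip the balance towards perforation. Neutrophils live briefly and depend on MCL1 and A1, whereas lymphocytes rely more on BCL2.

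In short, Bid was the member whose blood signal rose after APAP in susceptible rats, on both of its probe sets. No other member probe set passed the test there, and none passed in resistant rats. Whether the change differed between the sub-groups was tested directly, and no member passed. Before dosing no member passed the test between susceptible and resistant rats. Signals are given below on a scale on which the median probe set of every array is 1000, and changes as log2 differences of group means. A probe set passed when its Benjamini-Hochberg adjusted p in limma, fitted over all probe sets tested, was under 0.05. The level of 1 probe set cannot be set against that of another.

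Because Bid was the only member to pass in susceptible rats, the promoter window cut for this gene from the RefSeq table is shown. It covers 250 bases on the minus strand of GRCr8, chr4:155808320-155808569, read 5′ to 3′, with each GC box (GGGCGG on either strand, the letters bound by SP1-type factors) in capitals.
Bid: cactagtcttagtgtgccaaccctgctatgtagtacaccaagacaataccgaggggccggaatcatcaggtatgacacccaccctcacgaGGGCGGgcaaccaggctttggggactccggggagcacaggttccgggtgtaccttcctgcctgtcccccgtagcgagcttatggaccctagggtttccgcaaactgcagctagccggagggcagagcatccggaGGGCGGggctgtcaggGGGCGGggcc
The window held 3 GC boxes. Of 33469 windows of 250 bases cut in the same way from the RefSeq table, 30.5% held at least 1 and 7.41% held at least 3. It held no match to TTCNNNGAA (STAT), TGANTCA (AP-1) or TGACGTCA (CRE), which were found in 7.67%, 6.34% and 1.59% of all windows. The RefSeq span of Bid (chr4:155785366-155808775) extends beyond the window, so the window lies within the annotated gene, and the tables used here do not say whether it is exonic or intronic there. The table matched 8 of the 9 genes with 11 windows. Among them, GC boxes were found for Bcl2l11 (2), Bak1 (1) and Mcl1 (1), and 14.8% of all windows held at least 2. A STAT match was found in the window of Bad (1), and an AP-1 match in that of Bcl2a1 (1). For Bcl2l1, the overlapping windows that start at 161763201 and 161763336 held 2 STAT matches each, and its other windows held none. At least 2 STAT matches were found in 0.418% of all windows. Letters that match are a description and show no binding.

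Bid encodes the BH3-only protein that caspase-8 cuts after death receptor signalling, linking these receptors to the mitochondria. On the probe set 1377759_at its signal in susceptible rats was 47610, 33610, 52280, 36020 and 36460 postdose (SA), against 27310, 27330, 20460, 20260 and 24270 predose (S). The lowest postdose value lay above the highest predose value. The log2 difference was 0.77 (SE 0.14, 95% interval 0.47 to 1.08, limma adjusted p = 0.00298), a fold of 1.71. On the other probe set, 1369683_at, the signal was 12850, 7855, 12740, 9609 and 9748 postdose, against 6259, 6648, 4991, 5326 and 5088 predose. Here too the groups did not overlap, and the log2 difference was 0.88 (SE 0.16, 95% interval 0.55 to 1.22, limma adjusted p = 0.00233), a fold of 1.85. The exact 2-sided permutation test over arrays gave p = 0.00794 for each, the smallest value that 5 arrays against 5 allow.

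In susceptible rats 2 of the 15 member probe sets thus rose and 0 fell. Of all 30747 probe sets tested, 6.66% passed in either direction and 3.86% were higher, and both member probe sets belong to 1 gene. With the test run on 1 probe set per gene, 1 of 9 member genes passed, against 1391 of all 14138. The values of the 2 groups were separate for the same 2 member probe sets, against 6.83% of all probe sets. The median change of the members was 0.22, against 0.01 over all probe sets. Members with an unadjusted p under 0.05 were 7 of 15, against 19.0% of all.

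In resistant rats Bid was higher postdose on both probe sets without passing the test. On 1377759_at the signal was 32220, 34360, 31380, 25800 and 32390 postdose (RA), against 27050, 28790, 23070, 22610 and 20740 predose (R). Only the lowest RA value lay within the range of R. The log2 difference was 0.36 (SE 0.14, 95% interval 0.05 to 0.66, limma adjusted p = 0.191). On 1369683_at it was 0.47 (SE 0.16, 95% interval 0.14 to 0.80, limma adjusted p = 0.103), with 8787, 8675, 8452, 5935 and 8137 postdose, against 6012, 7163, 5227, 5712 and 4727 predose. Replicate 4 of RA was the low array on both probe sets, and without it the second passed, at 0.58 (limma adjusted p = 0.0415). Under quantile normalization both passed, at 0.39 (adjusted p = 0.037) and 0.50 (adjusted p = 0.0203) for 1377759_at and 1369683_at. Over all 30747 probe sets 2099 passed in that fit, against 1570 in the main one. The result for Bid in resistant rats therefore depended on the processing.

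The susceptible change of Bid was larger than the resistant one by 0.42 (SE 0.20, 95% interval -0.01 to 0.85) and 0.41 (SE 0.22, 95% interval -0.06 to 0.88), with limma adjusted p of 0.734 and 0.763. Neither passed, so a change of Bid particular to susceptible rats was not shown. Both probe sets moved together over the 20 arrays: after group means were subtracted, their r was 0.91. Their order of group means was the same, with SA highest, then RA, then R and S close together, and each neighbour in that order overlapped the next.

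**Figure D1:**
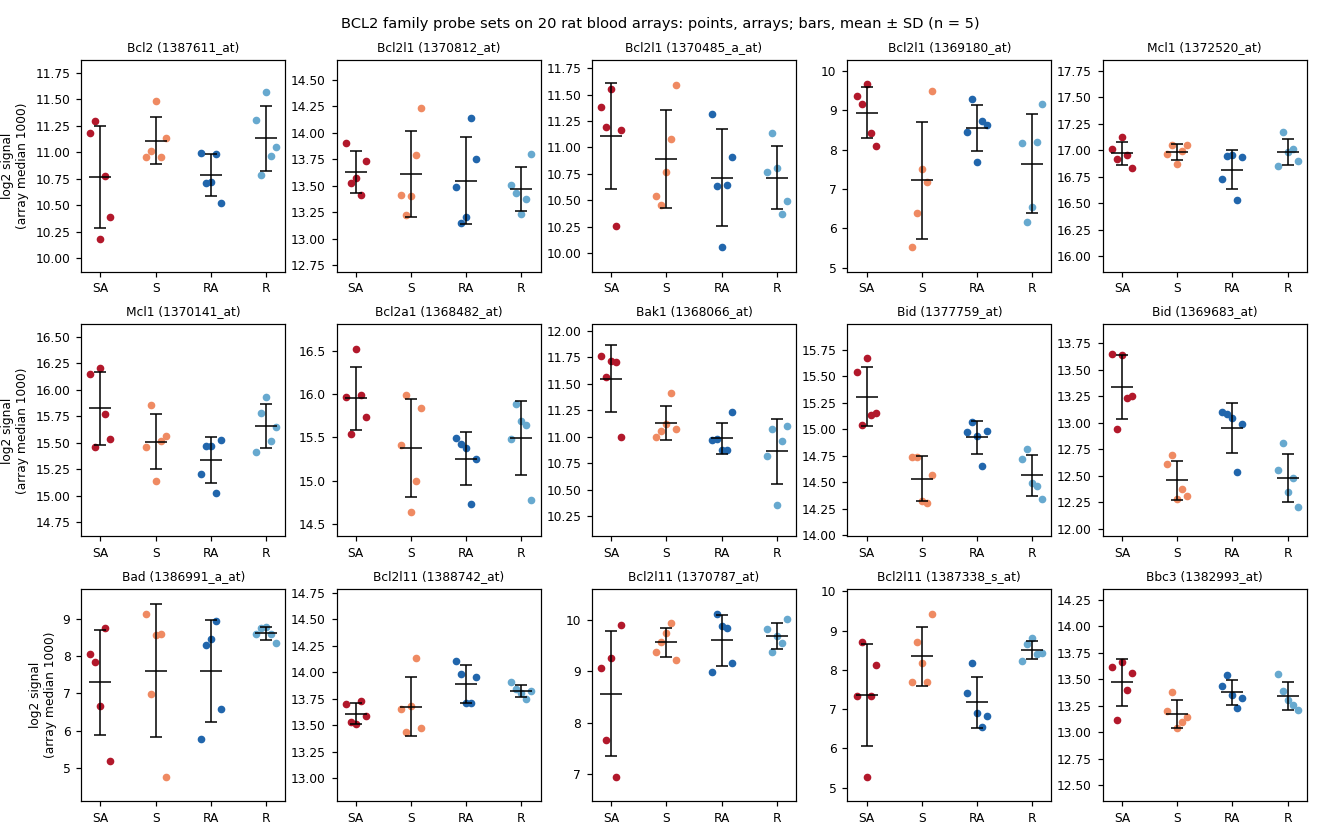
Log2 signal (y axis, each array scaled to a median of 1000) of the 15 BCL2 family probe sets on 20 arrays, in susceptible postdose (SA), susceptible predose (S), resistant postdose (RA) and resistant predose (R) rats. Points are arrays and bars the mean ± SD (n = 5 each); the y range differs between panels. On both Bid panels all SA points lie above all S points.

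The transcript of Bak1, which encodes the effector BAK, was measured by 1 probe set. Its signal in susceptible rats was 3476, 3028, 3354, 3332 and 2050 postdose, against 2051, 2128, 2220, 2722 and 2153 predose. Replicates 1 to 4 of SA lay above every S array and replicate 5 below every one. The log2 difference was 0.42 (SE 0.16, limma adjusted p = 0.144), and without SA replicate 5 it was 0.55 and passed (adjusted p = 0.0312). In resistant rats the signal was 1876 to 2404 postdose, against 1310 to 2201 predose, with a difference of 0.12 (SE 0.16, adjusted p = 0.776). The call for Bak1 in susceptible rats thus turned on 1 library.

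PUMA, encoded by Bbc3, is a BH3-only protein switched on by p53. The Bbc3 signal was 12580, 8882, 12940, 10780 and 12040 in SA, against 9422, 10620, 8424, 8745 and 9077 in S. Replicate 2 of SA was the low array of its group, and the groups overlapped. The log2 difference was 0.30 (SE 0.11, limma adjusted p = 0.135). Without that array it was 0.39 and passed (adjusted p = 0.0339). In RA the signal was 9626 to 11900, against 9462 to 11950 in R, a difference of 0.03 (SE 0.11, adjusted p = 0.928).

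Bcl2a1 and Mcl1 encode the survival proteins of short-lived myeloid cells. The Bcl2a1 signal was 63890, 47520, 94130, 65070 and 54820 in SA, against 43570, 65310, 25550, 32630 and 58660 in S. It was 46210, 43870, 42470, 27190 and 38940 in RA, against 45940, 60660, 53090, 51080 and 28100 in R. Both pairs of groups overlapped. The change was 0.57 (SE 0.27, limma adjusted p = 0.247) in susceptible rats and -0.24 (SE 0.27, adjusted p = 0.729) in resistant rats. The difference between these changes was 0.82 (SE 0.38, 95% interval 0.03 to 1.61), with an adjusted p of 0.709.

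For Mcl1 the 2 probe sets gave different sizes. On 1370141_at the signal was 72870, 45130, 75670, 55940 and 47380 in SA, against 45190, 59540, 36080, 47010 and 48550 in S. It was 37780, 45490, 45240, 33350 and 47200 in RA, against 43610, 56150, 62590, 46960 and 51490 in R. SA replicates 1 and 3 were the high arrays, and the same 2 arrays were highest for Bid. The change was 0.31 (SE 0.17, limma adjusted p = 0.339) in susceptible rats and -0.32 (SE 0.17, adjusted p = 0.361) in resistant rats, and the changes differed by 0.63 (SE 0.24, adjusted p = 0.585). On 1372520_at, the brighter one, the signal was 117000 to 143600 in SA, against 120100 to 135700 in S, and 94990 to 127000 in RA, against 118300 to 148000 in R. Its changes were -0.01 (SE 0.10) and -0.17 (SE 0.10), with adjusted p of 0.961 and 0.431. After subtraction of group means the r between the 2 Mcl1 probe sets was 0.76 over 20 arrays.

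Bcl2 encodes the founding survival protein. Its signal was 2315, 2505, 1160, 1748 and 1344 in SA, against 1987, 2067, 2865, 1990 and 2252 in S. In RA it was 2037, 1677, 1687, 2021 and 1471, against 2533, 1759, 3030, 1995 and 2119 in R. The postdose means were lower in both sub-groups with overlapping arrays: the log2 difference was -0.35 (SE 0.20) in each, with limma adjusted p of 0.391 in susceptible and 0.428 in resistant rats.

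Bcl2l1 encodes BCL-XL, which also keeps platelets and late red cell precursors alive. Its probe set of highest signal, 1370812_at, gave 10880 to 15360 in SA, against 9541 to 19250 in S, and 9057 to 18090 in RA, against 9655 to 14250 in R. The changes were 0.02 and 0.08 (SE 0.20 each), and 1370485_a_at gave 0.22 and 0.00 (SE 0.27 each). The dim probe set 1369180_at gave 659.4, 567.6, 809.5, 342.6 and 274.6 in SA, against 45.96, 84.35, 183.4, 144.5 and 720.6 in S. Its fitted difference was 1.72 (SE 0.65, limma adjusted p = 0.136), and the S array at 720.6 lay within the SA range. In RA it gave 206.0 to 625.1, against 71.26 to 566.5 in R, a difference of 0.91 (SE 0.65, adjusted p = 0.538). Without the S array at 720.6 the susceptible difference was 2.29 and passed (limma adjusted p = 0.0255). On 4 of the 20 arrays, 3 of them in S and 1 in R, this probe set was at or under the highest of 3 bacterial trp probe sets, which match no rat gene, so that the size of its change is uncertain. The r values between the 3 probe sets were 0.50, 0.54 and 0.35.

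BIM, encoded by Bcl2l11, kills lymphocytes and neutrophils when survival signals are withdrawn. The bright Bcl2l11 probe set, 1388742_at, gave 11630 to 13570 in SA, against 11040 to 17980 in S, and 13340 to 17630 in RA, against 13760 to 15360 in R. The changes were -0.07 and 0.07 (SE 0.12 each). The dimmer 1370787_at gave 532.2, 202.8, 608.9, 123.5 and 959.6 in SA, against 597.9 to 974.8 in S, a fold of 0.499 (log2 SE 0.42, 95% interval -1.88 to -0.12, limma adjusted p = 0.188). In RA it gave 506.8 to 1112, against 661.1 to 1033 in R, a difference of -0.09 (SE 0.42).

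The third Bcl2l11 probe set, 1387338_s_at, was the 1 member whose resistant groups did not overlap. It gave 170.6, 289.7, 120.5, 92.71 and 113.2 in RA, against 299.1, 403.2, 451.0, 341.1 and 344.8 in R. The log2 difference of -1.34 (SE 0.50) did not pass (limma adjusted p = 0.153), although it passed without SA replicate 3 (adjusted p = 0.045) and in a fit of the resistant arrays alone (adjusted p = 0.042). In susceptible rats it was -0.98 (SE 0.50, adjusted p = 0.309). The probe set was at or under the highest trp signal on 7 of 20 arrays, 3 of them in RA and none in R, and its r with the other 2 Bcl2l11 probe sets was -0.10 and -0.21. The other pair of Bcl2l11 probe sets had an r of -0.07, so that the 3 did not move together.

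Bad, which encodes a BH3-only protein governed by growth factor signalling, was near background. Its probe set gave 36.18 to 428.1 in SA, against 27.22 to 561.2 in S, and 54.46 to 490.6 in RA, against 322.9 to 439.1 in R. It was at or under the highest trp signal on 6 of 20 arrays. The change was -0.31 in susceptible rats (SE 0.80), and its 95% interval in resistant rats was -2.69 to 0.69. Neither passed (limma adjusted p = 0.890 and 0.605). Of the other dim probe sets, 1370787_at of Bcl2l11 was at or under it on 1 array. The 11 probe sets not named here or above as near trp were over it on every array.

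In resistant rats 0 of the 15 member probe sets passed in limma, against 5.11% of all probe sets, and 3 had an unadjusted p under 0.05, against 17.1% of all. Groups were separate for 1 of the 15, against 6.76% of all. The median change of the members was 0.00, against -0.01 over all probe sets. In the test of the difference of changes 0 of 15 passed in limma, as did 0% of all 30747 probe sets. An unadjusted p under 0.05 was found for 2 members there (Mcl1 on 1370141_at and Bcl2a1), against 6.90% of all.

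**Figure D2:**
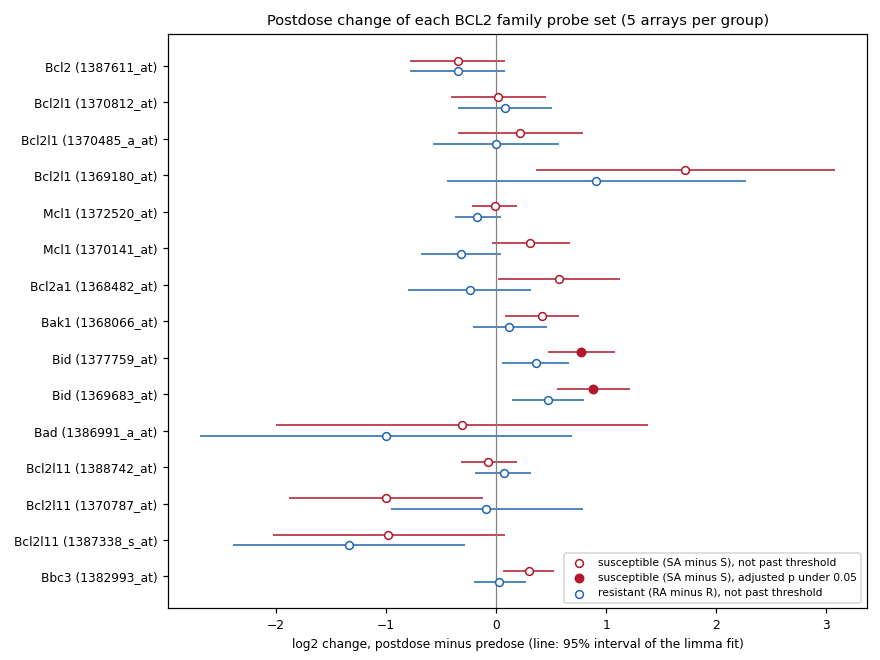
Log2 change after APAP (x axis, postdose minus predose) of each of the 15 BCL2 family probe sets in susceptible rats (red, SA minus S) and resistant rats (blue, RA minus R). Points are limma estimates with 5 arrays per group, lines 95% intervals, and filled points passed an adjusted p of 0.05. The only filled points are the 2 of Bid in susceptible rats, at 0.77 and 0.88.

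After dosing, susceptible and resistant rats were also compared directly. None of the 15 probe sets passed in limma, against 0.143% of all, while 7 had an unadjusted p under 0.05, against 9.18% of all. The arrays of the 2 groups were separate for Bcl2a1, against 2.23% of all probe sets: 47520 to 94130 in SA, against 27190 to 46210 in RA. Its log2 difference was 0.70 (SE 0.27, limma adjusted p = 0.410; exact permutation p = 0.00794). Bak1 had the smallest p of the members, with a difference of 0.56 (SE 0.16, limma adjusted p = 0.198). Bid was 0.38 and 0.39 higher in SA (adjusted p = 0.394 and 0.438), and Mcl1 0.49 higher on 1370141_at (adjusted p = 0.336). Bcl2l11 was lower in SA on 1388742_at, by -0.28 (SE 0.12, adjusted p = 0.480), and on 1370787_at, by -1.03 (SE 0.42, adjusted p = 0.438). This comparison shares its arrays with both postdose changes.

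Before dosing, 0 of the 15 probe sets passed in limma over the 10 predose arrays, against 0.00329% of all 30416 tested. None had an unadjusted p under 0.05, against 3.74% of all. All 15 adjusted p-values were 1, and no member's groups were separate, against 0.529% of all. Bid differed by -0.03 and -0.02 (SE 0.14 each), with 95% intervals of -0.35 to 0.28 and -0.34 to 0.30. The largest predose difference on a probe set above background in all arrays was that of Bak1, at 0.27 (SE 0.16), with 2051 to 2722 in S, against 1310 to 2201 in R.

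The genes that signal to the BCL2 family, and those it signals to, were counted in 7 further lists with 1 probe set per gene. In the death receptor list, which lies upstream of Bid, 4 of 10 measured genes rose in susceptible rats and 0 fell. Over the brightest probe set of each of 14138 gene symbols, the measure behind all these lists, 8.03% passed in susceptible and 5.77% in resistant rats. Of the 4 death receptor genes that rose in susceptible rats, Fas, the receptor of Fas ligand, rose by 1.62 (SE 0.24) and Faslg, the ligand itself, by 1.47 (SE 0.32). Tnfrsf1a, the main TNF receptor, rose by 1.25 (SE 0.19), and Tnfsf10, the ligand TRAIL, by 0.99 (SE 0.17). The limma adjusted p of the 4 lay between 0.000439 and 0.00858. In resistant rats Faslg (1.40, SE 0.32) and Tnfrsf1a (0.71, SE 0.19) rose, and Cflar, which blocks caspase-8 activation, fell by 0.52 (SE 0.15, adjusted p = 0.0485). With 1 array left out in turn, Tnfrsf1a in resistant rats passed in 13 of 20 fits and Cflar in 5 of 20. Ripk1, the adaptor kinase of these receptors, changed by 0.31 and 0.22 (SE 0.11 each) without passing. The median of the list was 0.22 in susceptible and 0.20 in resistant rats.

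Among 9 apoptosome and caspase genes, Casp8, whose product cuts BID, rose by 0.96 (SE 0.16, limma adjusted p = 0.00115) in susceptible rats. Its change in resistant rats was 0.36 (SE 0.16, adjusted p = 0.238). Parp1, a caspase substrate, fell by 0.37 (SE 0.11, adjusted p = 0.0444) in susceptible rats, a call that held in 6 of 20 fits with 1 array left out. Casp9, the caspase of the apoptosome, rose by 0.45 (SE 0.13, adjusted p = 0.0486) in resistant rats, which held in 4 of 20. Casp2 changed by 0.15 and 0.09 (SE 0.12 each). The list's medians were 0.01 and 0.09. No list gene passed in the difference of changes, in the postdose comparison or before dosing.

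Of 13 other BCL2 family genes measured, only Bik passed in limma. It encodes a BH3-only protein of the endoplasmic reticulum and rose in both sub-groups, by 1.84 (SE 0.38, adjusted p = 0.00642) and 1.46 (SE 0.38, adjusted p = 0.0325) in susceptible and resistant rats. The list's brightest genes, Bnip3l, a mitophagy receptor of maturing red cells, and Bnip2, changed by 0.10 (SE 0.17) and 0.21 (SE 0.11) in susceptible rats without passing. Of 12 regulators of BH3-only genes, Foxo1 and Pim3 fell in both sub-groups. Foxo1, a transcription factor that drives Bcl2l11 and Bbc3, fell by 0.60 in susceptible and 0.76 in resistant rats (SE 0.13 each). Pim3, a survival kinase, fell by 0.53 and 0.81 (SE 0.13 each). Foxo3, another such transcription factor, rose by 0.51 (SE 0.12, adjusted p = 0.0146) in susceptible rats. Usp9x, a deubiquitinase that stabilizes MCL1, rose by 0.38 (SE 0.10, adjusted p = 0.0419) in resistant rats. With 1 array left out, Bik in resistant rats passed in 12 of 20 fits and Usp9x in 8 of 20.

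The remaining 3 lists had no call in either sub-group. These were 10 genes of mitochondrial release and the pore, 4 inhibitors of apoptosis and 10 genes of p53 and its targets. Tmbim6 (BAX inhibitor 1) gave 0.32 in susceptible (limma adjusted p = 0.0979) and 0.00 in resistant rats (SE 0.11 each), and Vdac3 gave 0.04 and -0.10 (SE 0.09 each). Birc3 gave 0.49 (adjusted p = 0.0779) and -0.41 (adjusted p = 0.176; SE 0.16 each), and Birc2 gave 0.25 and -0.06 (SE 0.11 each). Gadd45a gave 0.67 (adjusted p = 0.0628) and -0.02 (SE 0.21 each), and Sesn1 gave -0.29 and 0.12 (SE 0.12 each). The list medians in susceptible and resistant rats were 0.24 and -0.14 for the inhibitors of apoptosis, 0.21 and 0.14 for p53, and 0.02 and -0.07 for the mitochondrial genes.

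**Figure D3:**
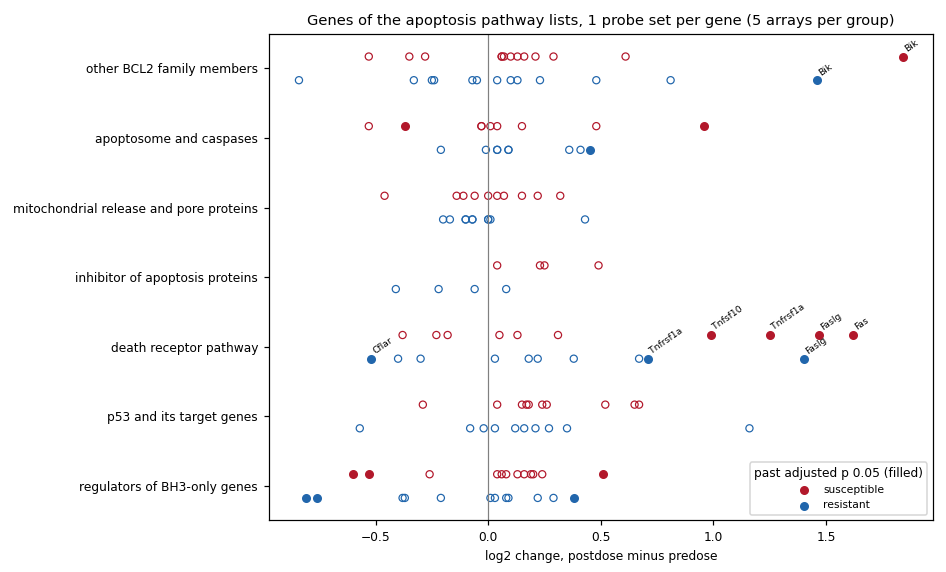
Log2 change after APAP (x axis, postdose minus predose) of the genes in 7 apoptosis pathway lists (rows), in susceptible rats (red, upper row of each pair) and resistant rats (blue, lower row), with 5 arrays per group. Each circle is 1 gene and filled circles passed an adjusted p of 0.05 in limma. In the death receptor list 4 genes rose in susceptible rats, between 0.99 and 1.62.

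Blood is a mixture of cells, and markers of several cell types moved with dosing. The summed signal of 8 neutrophil markers was 844300 to 1224000 in SA, against 497500 to 667500 in S, and 822900 to 1022000 in RA, against 505200 to 712900 in R, with no overlap within either sub-group. Of these 8 genes, 4 rose in susceptible and 3 in resistant rats, among them Cxcr2 by 2.21 (SE 0.23) and 1.48 (SE 0.23), and 1 was at or under the trp level in all groups. The sum of 9 natural killer and cytotoxic markers was 356800 to 575900 in SA, against 207600 to 272600 in S, and 416800 to 602500 in RA, against 203700 to 330800 in R, and 8 of the 9 rose in each sub-group. Of 9 monocyte markers, 5 passed as lower in susceptible rats, with a list median of -0.78 (sum 415200 to 578500 in SA, against 489700 to 539400 in S). In resistant rats 0 passed, and the list median was -0.54 (sum 387200 to 569900 in RA, against 392800 to 578300 in R). A fall of monocyte markers particular to susceptible rats was not shown. In a fit of the susceptible arrays alone only Adgre1 of these 5 passed, and Csf1r, Cx3cr1, Fcgr3a and Clec4a1 did not. B cell markers fell for 3 of 6 genes in susceptible rats (sum 86860 to 117400 in SA, against 115200 to 148300 in S), namely Cd22, Blnk and Fcer2, none of which passed in that fit. In resistant rats 0 of the 6 passed, with a median of -0.35 and a sum of 99810 to 126900 in RA, against 120100 to 176400 in R. Of 12 T cell markers 1 fell in each sub-group (Cd4, which passed in 6 of 20 fits with 1 array left out, and Cd28), and of 6 platelet and 7 erythroid markers none passed. The part of these shifts in the changes of Bid and the other members was not tested. In RNA of mixed blood cells, fewer cells of a type and less RNA per cell cannot be told apart.

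Markers of hepatocytes were dim. Their summed signal over 8 genes was 3232 to 28490 in SA, against 1503 to 3037 in S, and 2089 to 3488 in RA, against 2455 to 3367 in R. Alb (3.17, SE 0.76) and Ahsg (2.62, SE 0.61) rose in susceptible rats, Alb not in the fit of the susceptible arrays alone, and 1 of the 8 genes was at or under the trp level in all groups. The part of hepatocyte RNA in the members' signals was not tested.

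Within the family, the arrays on which Bid was high were also high for other members. After group means were subtracted and over 20 arrays, r was 0.82 between Bid and Bbc3, 0.78 between Bid and Bcl2a1, 0.66 between Mcl1 and Bcl2a1, 0.64 between Bcl2a1 and Bbc3, and 0.62 between Bid and Mcl1, using the brightest probe set of each gene. Bcl2 ran the other way, with r of -0.46 with Mcl1, -0.39 with Bbc3, -0.38 with Bid and -0.37 with Bcl2a1. Bak1, Bcl2l11 and Bcl2l1 had r between -0.35 and 0.36 with each of the other genes compared. Bad, whose signal was under the array median throughout, was not among the 8 genes compared. These values describe 20 arrays that share RNA handling, scaling and cell composition, and members of a pair come from the same array.

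**Figure D4:**
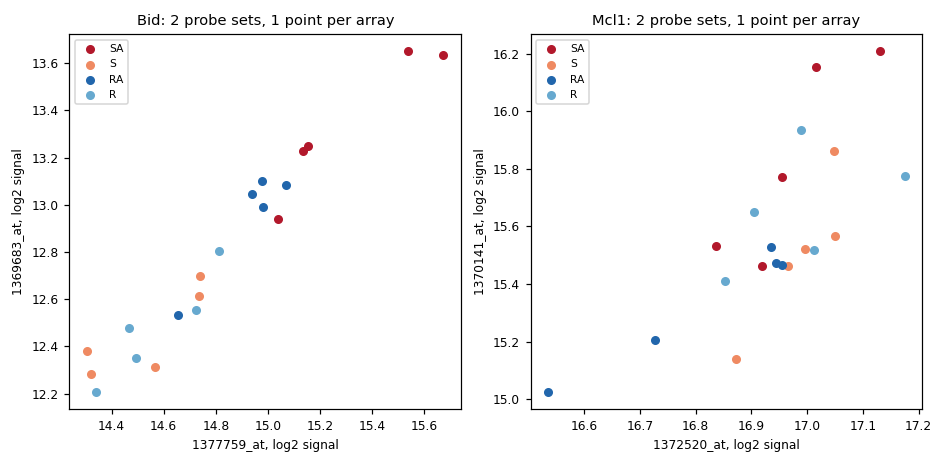
Log2 signal of the 2 probe sets of Bid (left) and of Mcl1 (right) against each other, 1 point per array, for SA, S, RA and R with 5 arrays each. The Bid points fall along 1 line (r = 0.97 as plotted, 0.91 after subtraction of group means), with 4 of the 5 SA arrays at the upper end. The Mcl1 points scatter more (r = 0.75 as plotted, 0.76 after subtraction of group means).

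Genes with the most similar pattern over the 20 arrays, again after subtraction of group means, were sought among 11994 probe sets with 1 symbol and a mean at or above the array median. For Bid they were Lamp2, a lysosomal membrane protein, with r of 0.94, and Lcp2, an adaptor of immune receptor signalling, and Ubtd1, each with 0.91. For Bcl2a1 they were Pgam1, Nfam1 and Asph, each with 0.93. For Bbc3 they were Mfsd5 (0.93), Il17ra, the receptor of interleukin 17 (0.89), and Apobr (0.88). For Mcl1 they were Rnf25 (0.86), Rhbdf2 (0.83) and Pak2 (0.82). For Bcl2l1 they were Atosb (0.88), Ell2 (0.87) and Kel, a red cell blood group protein (0.87). For Bcl2l11 they were Slc9a9 (0.88), B4galnt1 (0.85) and Mprip (0.83). Values were lower for Bak1, with Cox10 (0.80), Slc12a5 (0.79) and Clock (0.76), and for Bcl2, with Tmem163 (0.73), Rnf187 (0.72) and Trim3 (0.70). These 24 are the highest of 11994 candidates each and are given as a description.

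Deposited medians were 187.4 to 223 over the 20 arrays, the correlation between any 2 arrays was 0.915 to 0.941 with no identical pair, and the 3′ actin probe set exceeded the 5′ one, on the log2 scale, by 0.67 to 0.91 in SA, against 0.82 to 0.95 in S, and 0.66 to 0.91 in RA, against 0.77 to 0.85 in R. The highest trp signal, which sets the background level used here, varied more, with 163.5 to 190.4 in SA, against 135.9 to 237.2 in S, and 34.93 to 245.4 in RA, against 58.45 to 278.7 in R. The labels name separate rats as replicates. The number of arrays limits the precision.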

How the data were processed

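Blood RNA was measured on 20 one-colour Affymetrix arrays. The authors deposited linear intensity values, 1 per probe set and array; the methods state a median of 1000 per chip, which the deposited values do not have, and the software that summarised probes is not given in the sources used here. Each array was therefore scaled to a median of 1000, without its 57 controls, before log2 was taken. Testing required a signal of 100 or more on at least 1 array of the fit, which all 15 member probe sets met. The fits used lmFit and eBayes of limma 3.58.1 (R 4.3.3), with Benjamini-Hochberg adjustment. Only the 10 predose arrays entered the comparison before dosing, and all 20 entered the rest. The fit was tested on simulated data. The platform annotation named 20826 probe sets with 1 symbol each, and RefSeq on GRCr8 gave positions and windows. The members and gene lists were chosen with earlier results of these data known. Named were every member probe set, of each pathway list the genes that passed (at most 6) and most of the 2 brightest, and the 3 most similar genes per member with a mean signal at or above the array median; cell type marker lists are given mainly by counts and summed signals. Alternatives were other scalings, filters, offsets, tests and samples; their use on list genes was added after the data were seen. Figures used matplotlib 3.10.9 in Python 3.11.15.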

Additional observations from a re-analysis of the deposited data

Results flagged for a closer look

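Among 60 groups of 5 arrays (15 member probe sets in 4 groups), 3 held an array far from the other 4, and chance alone gives about 1 in 20. The Bak1 signal of SA replicate 5 was 2050, with 3028 to 3476 on the other SA arrays. The Bak1 signal of S replicate 4 was 2722, with 2051 to 2220 on the other S arrays. The signal of the Bid probe set 1369683_at on RA replicate 4 was 5935, with 8137 to 8787 on the other RA arrays.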

How the results depend on the processing

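Bid in susceptible rats kept its call in 20 of 20 fits with 1 array left out, at 0.68 to 0.84 for 1377759_at and 0.81 to 0.98 for 1369683_at. The count of member probe sets passing in susceptible rats was 2. With 1 probe set per gene it was 1, against 1391 of all 14138. It was 0 by the methods' t-test with a fold change of at least 2, against 1012 of all 30747 probe sets. The Bid folds of 1.71 and 1.85 lay under that cut, so Bid could not pass there whatever its p. By the t-test with adjustment and without the fold cut the count was also 0 (adjusted p = 0.0597 and 0.0515 for the Bid probe sets 1377759_at and 1369683_at). It was 4 by the unadjusted exact permutation test, which added Bak1 and Bbc3, and leaving out 1 array gave 2 to 3. The permutation test was run on the 15 member probe sets only, so its counts here and below have no share over all probe sets. For scale, 19.0%, 17.1% and 9.18% of all probe sets had an unadjusted limma p under 0.05 in the susceptible, resistant and postdose comparisons. In resistant rats the count was 0. It was 2 under quantile normalization, against 2099 of all 30747 probe sets. With only the arrays compared it was 1, against 968 of 30441, and by the t-test with a fold change 1, against 954 of 30747. The exact permutation test gave 3. Leaving out 1 array gave 0 to 1, against 967 to 1661 of all probe sets. After dosing the count was 0, and 6 by the exact permutation test. Arrays with the same replicate number did not deviate together (r of -0.03 to 0.05 over 10 pairs, 3 of 10 closest to their own number). With the replicate block the counts were 2 and 0 in susceptible and resistant rats, and 0 in both other comparisons with all 20 arrays, so it changed no call of a member. Over 2055 pairs of a member result (75 in all) and an alternative, 2031 kept their side of the threshold, 4 lost it, 20 gained it and 0 reversed; 68 sign changes fell among values that passed in neither fit. The causes were not tested.

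Over all probe sets, 2048 passed in susceptible rats, against 910 with only the arrays compared, 578 by the adjusted t-test and 1332 without SA replicate 3, and 1570 passed in resistant rats, against 968, 729 and 967 without R replicate 3. After dosing 44 passed, against 7 to 89 with 1 array left out, 73 under quantile normalization, 75 under the stricter filter and 0 by the adjusted t-test. In the list genes no direction reversed; with only the susceptible arrays, Bik, Faslg, Foxo3, Pim3, Parp1, Csf1r, Cx3cr1, Fcgr3a, Clec4a1, Cd4, Cd22, Blnk, Fcer2 and Alb did not pass, nor with only the resistant arrays did Casp9, Cflar, Usp9x, Gzmb and Cd28. With 1 array left out, Cx3cr1 and Clec4a1 passed in 15 of 20 fits each. Of the pathway list genes called in susceptible rats, Fas, Tnfsf10 and Casp8 also passed by the adjusted t-test. Tnfrsf1a, Faslg, Bik, Foxo1, Foxo3, Pim3 and Parp1 did not, nor did the markers Adgre1 and Ahsg. The t-test and the permutation test were not run for the difference of changes, and the block and the fit of only the arrays compared do not apply before dosing. Signals near the trp level limit Bad, 1369180_at of Bcl2l1 and 2 Bcl2l11 probe sets.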
